A study of Mus musculus with 27 samples.

Results

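The change in gene expression between postnatal day 1 and 4 weeks of age was compared in cardiac fibroblasts and in whole heart, to find genes other than collagens and tissue inhibitors of metalloproteinases that moved apart in the tissues. The comparison was between 12 of the 27 RNA-Seq samples of C57BL/6 mice, namely 3 samples each of fibroblasts at postnatal day 1 (F_Neo), fibroblasts at 4 weeks (F_4W), whole heart at postnatal day 1 (H_Neo) and whole heart at 4 weeks (H_4W). All 27 samples were fitted together, so those of later ages entered the filter on low counts, the scaling and the estimate of spread. No group carried an engineered allele or received a treatment. Fibroblasts were sorted by flow cytometry for the surface receptor PDGFRα from the nonmyocyte fraction of digested ventricles, without atria and valves, whereas whole heart holds every cell type, fibroblasts among them. For each gene, the log2 fold change in whole heart was subtracted from the log2 fold change in fibroblasts, and the result is called the tissue difference. It is positive where the fibroblast level moved up relative to heart, and negative where it moved down. The comparison took in all 20650 genes that passed the filter on low counts, and 11 of the 47 collagen and TIMP genes among them had a tissue difference that passed the test and are not described here.

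The first weeks after birth are a time of rapid maturation in the mouse heart. Cardiomyocytes leave the cell cycle, exchange fetal for adult contractile protein isoforms, and come to rely on fatty acids and oxidative phosphorylation. Fibroblasts slow their division over the same weeks and lay down and remodel matrix. A gene can therefore move in a tissue because its level per cell changes or because the cells that express it become more or less common, and in bulk samples fewer cells of a type and less RNA per cell cannot be told apart.

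Total counts in the 12 samples ranged from 63750869 to 74710723 per sample. Levels are given as CPM, the count of a gene scaled to a common library size with TMM factors, and changes are on the log2 scale. Genes of the mitochondrial genome took 6.15 to 9.18% of counts in F_Neo, 1.88 to 3.73% in F_4W, 10.8 to 13.7% in H_Neo and 14.9 to 26.8% in H_4W. All 8 fibroblast markers (Pdgfra, Tcf21, Dcn, Lum, Dpt, Gsn, Ddr2 and Thy1) were detected in every sample, Pdgfra being the gate of the sort, and their summed level was 6229.8 to 7671 CPM in F_Neo, 35146 to 44559 in F_4W, 702 to 790.1 in H_Neo and 2137 to 3072 in H_4W, so that the sorted samples held these transcripts at higher levels than whole heart at both ages. The 8 cardiomyocyte markers (Myh6, Myh7, Tnnt2, Tnni3, Actc1, Ttn, Pln and Myl2) were also detected in the sorted samples, at a summed 685 to 759.6 CPM in F_Neo and 54.1 to 152 in F_4W, beside 44544 to 53538 in H_Neo and 70008 to 83963 in H_4W. The fibroblast mean was thus 1.504% of the heart mean at day 1 and 0.118% at 4 weeks. F_4W replicate 3 stood apart in the 9 endothelial markers, with a summed 1819 CPM against 654 and 564 in the other F_4W samples, and counts without it are given below.

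**Figure D1:**
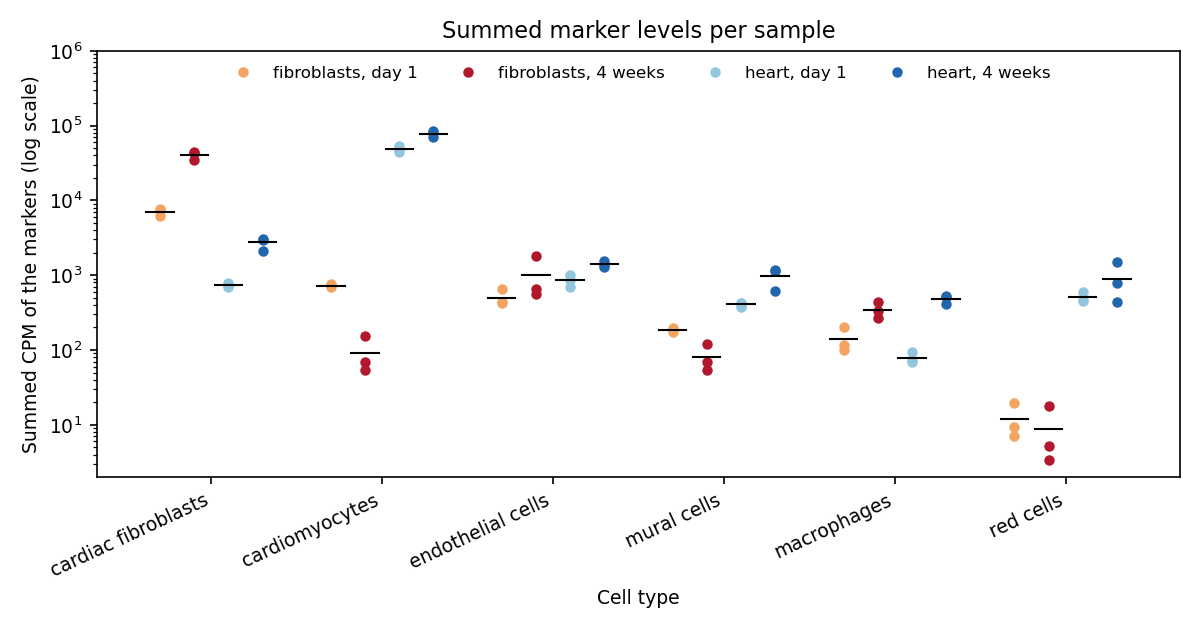
Summed CPM of cell type markers in each of the 12 samples, on a log scale, with a point per sample and a bar at the mean of 3. Cardiomyocyte markers lay at 685 to 759.6 CPM in day 1 fibroblasts and 54.1 to 152 at 4 weeks, and the highest endothelial value among fibroblasts was 1819 in F_4W replicate 3.

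The tissue difference passed an adjusted p of 0.05 for 1475 genes (7.14% of 20650, by edgeR's quasi-likelihood F test with Benjamini-Hochberg adjustment), of which 657 (3.18%) were higher and 818 (3.96%) lower. Within fibroblasts, 1580 genes (7.65%) rose and 1221 (5.91%) fell from day 1 to 4 weeks, and within whole heart 1600 (7.75%) rose and 1101 (5.33%) fell. The share of calls that were higher depended on the scaling, since it was 44.5% with TMM factors, 31.7% with median-of-ratios size factors (529 higher and 1141 lower) and 79.01% with library size only (1668 higher and 443 lower). The median tissue difference of all genes was 0.17, 0.00 and 0.60 under these scalings, so each value below is read against 0.17. Without F_4W replicate 3, 568 genes were higher and 869 lower. Without H_4W replicate 2 or H_4W replicate 3, the number of higher genes was 387 and 433.

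**Figure D2:**
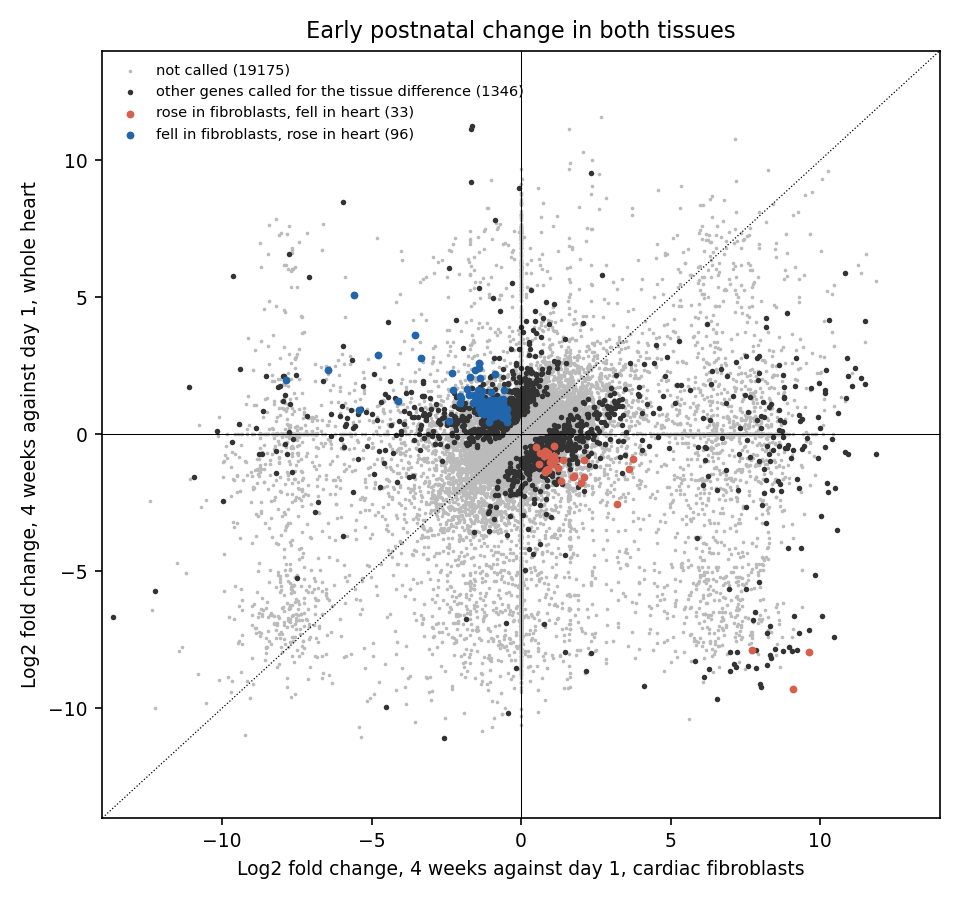
Log2 fold change of 4 weeks over postnatal day 1 in whole heart (vertical axis) against cardiac fibroblasts (horizontal axis), with a point per gene tested and a dotted line of equal change. The 33 genes that rose in fibroblasts and fell in heart lie at the lower right, the 96 with the reverse pattern at the upper left, and black points are the other 1346 genes called.

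The genes called fell into a few patterns. In 352 genes the level rose in heart while the fibroblast change did not pass the test, and in 157 it fell in heart only by that measure. In 320 genes the level rose and in 290 it fell in fibroblasts while the heart change did not pass. A further 103 changed in the same direction in both tissues but by unequal amounts, of which 80 rose in both and 23 fell in both, and 124 passed in neither tissue alone. The remaining 129 changed in opposite directions, with 33 that rose in fibroblasts and fell in heart (0.16% of genes tested) and 96 that fell in fibroblasts and rose in heart (0.465%). These opposed counts were 24 and 137 with median-of-ratios size factors and 120 and 34 with library size only. Leaving out H_4W replicate 2, H_4W replicate 3 or H_Neo replicate 2 brought the 33 down to 16, 18 and 18, and leaving out H_Neo replicate 2 brought the 96 down to 60.

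Among the genes that rose in fibroblasts and fell in heart, 5 protein-coding genes of large tissue difference are described, which were chosen among those whose ages did not overlap in either tissue. Gene positions are those of GENCODE M21 on GRCm38. Ntn4, which encodes the basement membrane protein netrin-4 (chromosome 10, 93640681 to 93747207, plus strand), was at 9.22, 3.69 and 12.8 CPM in F_Neo and 128, 109 and 108 in F_4W. In heart it was at 24.8, 45.99 and 40.4 CPM at day 1 and 23.5, 16.6 and 19.8 at 4 weeks. It rose by 3.74 in fibroblasts and changed by -0.89 in heart, and every F_4W sample exceeded every heart sample although all F_Neo samples were below them. The heart change was close to the threshold (adjusted p = 0.04998) and did not pass it with median-of-ratios size factors (-0.78, adjusted p = 0.0828), with TMM within each tissue (-0.87, adjusted p = 0.0544) or without the mitochondrial genome (-0.78, adjusted p = 0.0921). The tissue difference was 4.64 ± 0.44 (SE, adjusted p = 3.77e-07). Tmem71, a transmembrane protein gene (chromosome 15, 66526212 to 66561103, minus strand), was at 0.762, 1.35 and 0 CPM in F_Neo and 6.92, 3.24 and 9.27 in F_4W, against 60.6, 38.4 and 36 in H_Neo and 10.7, 3.795 and 8.74 in H_4W. Heart was far above fibroblasts at day 1, and by 4 weeks the samples of the tissues overlapped. The tissue difference was 5.73 ± 1.03 (SE, adjusted p = 9.09e-04).

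Thbs4 (chromosome 13, 92751590 to 92794818, minus strand) encodes thrombospondin-4, a matricellular protein. It was at 6.701, 4.29 and 11.4 CPM in F_Neo and 28.7, 42.7 and 18.4 in F_4W, and at 21.5, 16.1 and 14.98 in H_Neo and 3.72, 6.05 and 5.58 in H_4W. Heart was the higher tissue in every sample at day 1 and fibroblasts in every sample at 4 weeks, with a tissue difference of 3.77 ± 0.58 (SE, adjusted p = 1.85e-04). Foxc1 (chromosome 13, 31806633 to 31812476, plus strand), a forkhead transcription factor of mesenchymal development, started at nearly the same level in the tissues, with 23.3, 18.4 and 22.1 CPM in F_Neo and 25.7, 22.6 and 19.3 in H_Neo. At 4 weeks it was at 78.9, 62.8 and 76.7 CPM in fibroblasts and 5.57, 7.27 and 10.6 in heart, with a tissue difference of 3.3 ± 0.40 (SE, adjusted p = 1.12e-05).

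Cholesterol synthesis makes membrane sterol from acetyl-CoA under the transcription factor encoded by Srebf2. Hsd17b7 (chromosome 1, 169949535 to 169969241, minus strand), the 3-ketosteroid reductase of the pathway, was at 3.97, 2.597 and 2.94 CPM in F_Neo and 13.8, 14.1 and 12.8 in F_4W, against 30.4, 36.5 and 45.1 in H_Neo and 14.96, 10.6 and 12.2 in H_4W. Day 1 heart stood above all other samples, and the tissue difference was 3.66 ± 0.40 (SE, adjusted p = 2.95e-06). Of the 23 genes tested of the pathway, 4 had a higher tissue difference and none a lower one, where 3.18% of all genes were higher. The median tissue difference of the list was 1.22, against 0.17 over all genes. Among the genes called were also Srebf2 itself, which rose in fibroblasts from 42.4 ± 11.7 to 133 ± 44.5 CPM (SD, n = 3) with 67.05 ± 4.996 and 44.8 ± 1.82 in heart, and Insig1, which encodes a sensor that holds back the pathway when sterol is plentiful. Insig1 rose from 16.7 ± 5.23 to 40.7 ± 9.82 CPM in fibroblasts, and the heart means were 16.3 and 14.7. The call was lost for Insig1 without any of 7 samples (adjusted p = 0.0506 to 0.09097). Within fibroblasts alone 6 of the 23 rose and none fell, and within heart none rose and 3 fell. Over all genes 7.65% rose in fibroblasts and 5.33% fell in heart.

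The promoters that RefSeq gives for these 3 genes are shown because all 3 were higher in fibroblasts at 4 weeks and had a higher tissue difference. Their heart changes were not alike, since Hsd17b7 fell past the test and Insig1 kept nearly the same mean. Each runs from 250 bases before the start of the gene to 50 after it on GRCm38.p6, 5′ to 3′ on the strand of the gene, and the capitals mark matches on either strand to CCAAT, the site of NF-Y, and CACGTG, an E-box. Hsd17b7 lies at chr1:169969156-169969455 (minus strand), Insig1 at chr5:28071162-28071461 (plus strand) and Srebf2 at chr15:82147019-82147318 (plus strand).
Hsd17b7: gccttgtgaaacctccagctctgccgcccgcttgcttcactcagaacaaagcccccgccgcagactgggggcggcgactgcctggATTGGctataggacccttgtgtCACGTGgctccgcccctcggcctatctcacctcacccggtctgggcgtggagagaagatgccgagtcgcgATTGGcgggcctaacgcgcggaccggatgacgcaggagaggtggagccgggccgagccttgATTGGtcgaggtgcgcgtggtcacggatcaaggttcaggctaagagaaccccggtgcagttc
Insig1: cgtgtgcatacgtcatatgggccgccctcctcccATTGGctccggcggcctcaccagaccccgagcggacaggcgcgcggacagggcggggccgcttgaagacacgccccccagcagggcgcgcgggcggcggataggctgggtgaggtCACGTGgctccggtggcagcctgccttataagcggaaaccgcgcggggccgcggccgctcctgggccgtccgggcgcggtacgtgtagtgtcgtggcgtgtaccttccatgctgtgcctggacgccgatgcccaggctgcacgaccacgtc
Srebf2: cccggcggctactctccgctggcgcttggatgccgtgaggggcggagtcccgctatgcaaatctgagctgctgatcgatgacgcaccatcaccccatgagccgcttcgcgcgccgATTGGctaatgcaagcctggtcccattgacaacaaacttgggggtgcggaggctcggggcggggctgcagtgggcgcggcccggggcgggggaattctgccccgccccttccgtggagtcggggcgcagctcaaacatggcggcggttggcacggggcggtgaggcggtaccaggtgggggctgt
The 16 genes of the cholesterol list that have an entry had 19 promoters, of which 16 (84.2%) held CCAAT and 4 (21.1%) CACGTG, where 37.4% and 7.15% of all 32851 promoters did. Over the genes that rose in fibroblasts and fell in heart, 23 had an entry, and 16 of their 31 promoters held CCAAT (51.6%), 3 CACGTG (9.68%), 4 TATAAA (12.9%) and 1 TGANTCA (3.23%), while none held AAGGTCA. Over all promoters the last 3 motifs had shares of 13.6%, 7.81% and 4.72%. For the genes that fell in fibroblasts and rose in heart, 68 had an entry, and of their 87 promoters 33 held CCAAT (37.9%), 9 TATAAA (10.3%), 8 CACGTG (9.20%), 5 AAGGTCA (5.75%) and 4 TGANTCA (4.60%). All motifs were searched on both strands, each motif on its own, and a match describes the letters in the window and does not show that a factor binds there.

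In the reverse pattern, 6 protein-coding genes of large tissue difference are described, again chosen among those whose ages did not overlap in either tissue. Fndc5 (chromosome 4, 129136999 to 129144593, plus strand), the precursor of the muscle-derived peptide irisin, was at 23.4, 16.6 and 19.1 CPM in F_Neo and 10.3, 6.56 and 3.53 in F_4W. In heart it was at 115, 104 and 157 CPM at day 1 and 582, 799 and 541 at 4 weeks, and the tissue difference was -3.9 ± 0.41 (SE, adjusted p = 1.65e-06). Ank1 (chromosome 8, 22974844 to 23150497, plus strand), which encodes a membrane-cytoskeleton linker, was at 33.5, 35.6 and 21.8 CPM in F_Neo and 8.23, 14.95 and 4.39 in F_4W, and at 109, 107 and 129 in H_Neo and 501, 548 and 425 in H_4W. Its tissue difference was -3.82 ± 0.46 (SE, adjusted p = 9.97e-06). Both genes were higher in heart than in fibroblasts at day 1 and the gap widened by 4 weeks. Egln3 (chromosome 12, 54178981 to 54203860, minus strand), an oxygen-dependent prolyl hydroxylase that acts on hypoxia-inducible factor, started nearer in the tissues, at 17.8, 26.4 and 21.9 CPM in F_Neo and 36.3, 30.7 and 34.5 in H_Neo. At 4 weeks it was at 9.99, 9.78 and 5.11 in fibroblasts and 198, 167 and 174 in heart, a tissue difference of -3.82 ± 0.33 (SE, adjusted p = 6.68e-08).

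Ogdhl (chromosome 14, 32322019 to 32348151, plus strand), a relative of the 2-oxoglutarate dehydrogenase of the citric acid cycle, was at 5.82, 4.35 and 4.68 CPM in F_Neo, 0.0354, 1.12 and 0.114 in F_4W, 12.9, 11.97 and 12.5 in H_Neo and 166, 189 and 107 in H_4W. The day 1 levels differed by less than the 4-week levels, and the tissue difference was -7.17 ± 0.89 (SE, adjusted p = 1.45e-05). Itgb1bp2 (chromosome X, 101449088 to 101453541, plus strand) encodes melusin, an integrin-binding protein of striated muscle. It was at 2.32, 3.95 and 2.94 CPM in F_Neo and 0.0589, 0.0583 and 0.09097 in F_4W, and at 111, 112 and 130.0 in H_Neo and 192, 258 and 201 in H_4W, a tissue difference of -6.31 ± 0.36 (SE, adjusted p = 1.46e-09). The heart change was 0.88 (adjusted p = 0.00436) and did not pass with library size only (0.39, adjusted p = 0.158). Lgr6 (chromosome 1, 134983301 to 135105276, minus strand), a receptor for R-spondins of the Wnt pathway, was at 3.59, 2.58 and 3.11 CPM in F_Neo and at 3 counts in all over the 3 F_4W samples. In heart it was at 13.4, 13.8 and 12.01 CPM at day 1 and 58.3, 51.2 and 43.9 at 4 weeks. The heart change was 1.97 (adjusted p = 0.0467) and did not pass with library size only (1.47, adjusted p = 0.13) or with TMM within each tissue (1.99, adjusted p = 0.0524). The fall in fibroblasts was 269-fold (95% counting interval 92.1 to 1306). Fitted changes of genes with at most 3 counts in a group depend on the prior count of the fit.

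**Figure D3:**
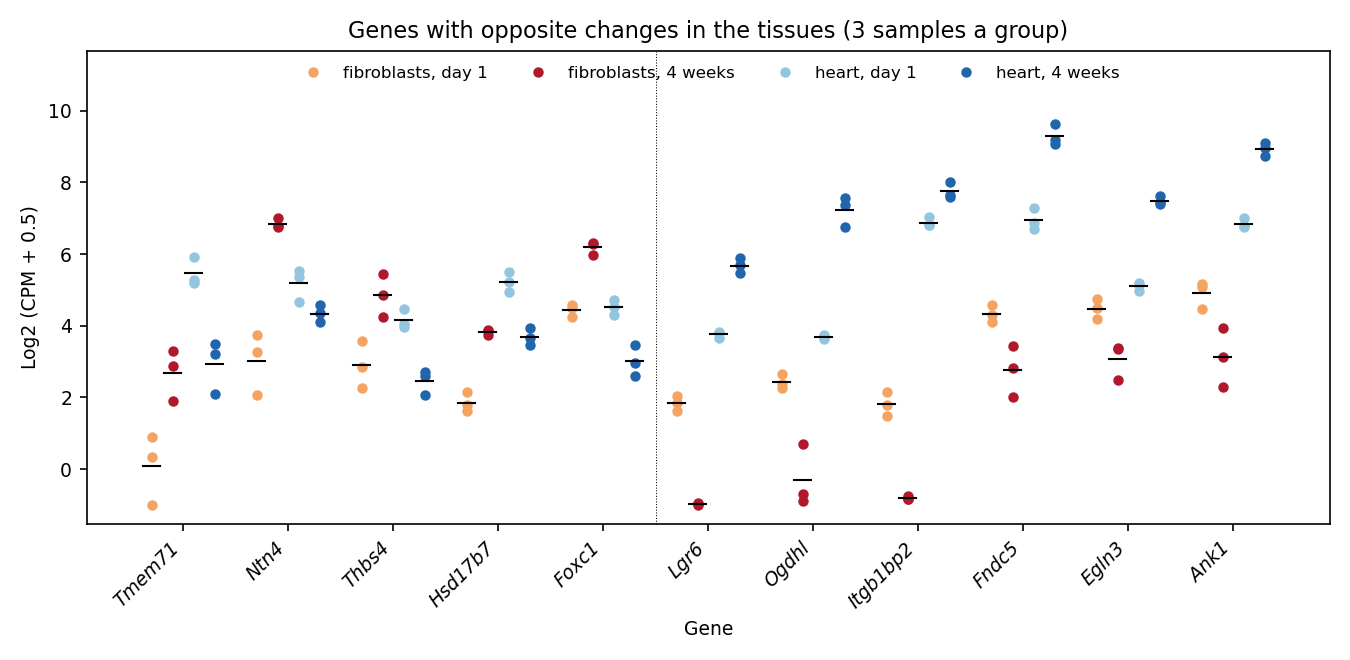
Level of 11 genes with opposite changes in each sample, as log2 of CPM plus 0.5, with a point per sample and a bar at the mean of 3. The 5 genes on the left rose in fibroblasts and fell in heart, and the 6 on the right fell in fibroblasts and rose in heart. All were chosen among genes with no overlap between ages in either tissue.

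Because cardiomyocyte transcripts fell in the sorted samples, the level in fibroblasts was set beside that in heart for these genes. At day 1 the 8 cardiomyocyte markers were in fibroblasts at between 0.964% and 2.17% of their heart level. Of the 96 genes that fell in fibroblasts and rose in heart, 3 were at or below that upper value and 93 above it, with a median of 31.8%. Fndc5 was at 15.7%, Ank1 at 26.3%, Egln3 at 65.1%, Ogdhl at 39.7% and Lgr6 at 23.7% of the heart level, while Itgb1bp2 at 2.61% was just above the marker range. Of the 290 genes that fell in fibroblasts without a change past the test in heart, 42 were at or below it. Among all 818 genes with a lower tissue difference, 65 were at or below it and 753 above. The share of all genes above that value was not taken. Over all genes tested, the day 1 log2 ratio of fibroblast to heart level, each plus 0.5 CPM, had a median of -0.09. Its lower quartile was -0.73. A place above the marker range therefore does not set these genes apart from other genes. A gene also needs counts in F_Neo to be called as falling in fibroblasts. The part of cardiomyocyte RNA in the values of single genes was not tested.

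Genes that changed in fibroblasts with no change past the test in heart included several that were at or near 0 counts at one age. Cmah, which makes the sialic acid Neu5Gc, was at 0, 0.0643 and 0 CPM in F_Neo and 25.3, 22.6 and 19.9 in F_4W. In heart it was at 0.577, 1.22 and 0.737 CPM and 3.33, 1.22 and 4.64, and the tissue difference was 8.11 ± 1.2 (SE, adjusted p = 1.16e-04). Stmn4, a neural member of the stathmin family of microtubule regulators, had 1 count in all over the F_Neo samples and 21.5, 11.7 and 14.2 CPM in F_4W, a rise of 3910.3-fold (95% counting interval 702 to 154450.0). It was the only one of the 15 glial and neural genes tested that was called for the tissue difference, near the 7.14% of all genes called. DESeq2 called 2 of the list, and the list median was -0.71. Sh2d4a, an SH2 domain adaptor, rose from 1 count in all to 1.43, 0.711 and 3.21 CPM, which is 446-fold (95% counting interval 79.99 to 17604), while heart had 19.5, 13.5 and 15.4 CPM at day 1 and 9.83, 17.5 and 8.84 at 4 weeks. Upp1, uridine phosphorylase, rose from 0, 0.0771 and 0 to 1.92, 1.48 and 2.04 CPM in fibroblasts, with 20.4, 23.1 and 38.2 and 2.76, 10.4 and 9.55 in heart. Neither heart change passed the test (1.86, adjusted p = 0.103 for Cmah and -1.84, adjusted p = 0.154 for Upp1). The heart samples of the ages did not overlap for Upp1, and for Cmah the highest day 1 sample and the lowest 4-week sample were both at 1.22 CPM.

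Of the 290 genes that fell in fibroblasts without a change past the test in heart, 4 are described. Prlr, the prolactin receptor, was at 16.5, 6.79 and 9.46 CPM in F_Neo and at 2 counts in all over F_4W, a fall of 1456-fold (95% counting interval 403 to 12027), and heart samples overlapped at 2.25, 0.631 and 1.87 and 3.77, 0.817 and 0.576. Adrb1, the β1-adrenergic receptor through which sympathetic nerves drive the cardiomyocyte, was at 6.36, 3.68 and 5.92 CPM in F_Neo and 3 counts in all over F_4W, a fall of 464-fold (95% counting interval 159 to 2249.9). In heart it was at 6.44, 18.9 and 19.6 CPM at day 1 and 25.3, 31.3 and 25.1 at 4 weeks (0.86, adjusted p = 0.454). Its day 1 fibroblast level was 35.5% of the heart level, and the part of cardiomyocyte RNA in it was not tested. Kcnd3, which encodes the Kv4.3 potassium channel of the transient outward current, fell from 1.91, 1.21 and 1.497 CPM to 1 count in all, which is 404-fold (95% counting interval 72.5 to 15955), with 5.42, 4.29 and 0.987 and 18.3, 10.1 and 8.01 in heart. Celsr1, a cadherin of planar cell polarity, was uneven in F_Neo at 2.81, 4.56 and 0.0129 CPM and had 1 count in all over F_4W. Its fall was 643-fold (95% counting interval 115 to 25413), and heart samples overlapped. The call for the tissue difference was lost for Celsr1 without any of 6 samples (adjusted p = 0.0501 to 0.0684).

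Other genes changed in heart with no change past the test in fibroblasts. Csdc2, an RNA-binding cold-shock domain protein, rose in heart from 5.48, 5.15 and 2.74 CPM to 118, 99.9 and 84.01, while fibroblasts were at 29.2, 19.1 and 22.9 in F_Neo and 19.8, 11.01 and 12.6 in F_4W. Fibroblasts were the higher tissue at day 1 and heart at 4 weeks, with a tissue difference of -5.21 ± 0.38 (SE, adjusted p = 7.63e-09). The fibroblast change of Csdc2 was -0.71 (adjusted p = 0.0638). It passed as a fall with median-of-ratios size factors (-0.77, adjusted p = 0.0440) and with library size only (-0.78, adjusted p = 0.0457). Rhbdl3, a rhomboid-family protein, was at 1.84, 0.0115 and 2.88 and 24.6, 25.7 and 21.6 CPM in heart and at 11.9, 13.5 and 11.9 and 13.95, 9.19 and 14.2 in fibroblasts, a tissue difference of -3.93 ± 0.94 (SE, adjusted p = 0.0108). Ldhd, mitochondrial D-lactate dehydrogenase, rose in heart from 2.13 ± 1.96 to 37.2 ± 5.899 CPM (SD, n = 3) with a tissue difference of -3.96 ± 0.95 (SE, adjusted p = 0.01097). Lrg1, a secreted leucine-rich glycoprotein, rose from 5.53 ± 2.49 to 49.4 ± 6.83, with a tissue difference of -5.1 ± 1.25 (SE, adjusted p = 0.0128). Fibroblast samples of the ages overlapped for all 4 genes, and the call was lost for Ldhd without F_Neo replicate 3 (adjusted p = 0.0838) and Lrg1 without F_Neo replicate 2 (adjusted p = 0.0573). In a fit of only the 12 samples the tissue difference did not pass for Rhbdl3 (adjusted p = 0.09297), Ldhd (0.0816) or Lrg1 (0.131).

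In the opposite direction, Adamts19 and Adamts6, both secreted metalloproteases, fell in heart and stayed within overlapping ranges in fibroblasts. Adamts19 was at 8.38, 18.3 and 21.7 CPM in H_Neo and 0.593, 0.929 and 0.0467 in H_4W, with 35.2, 31.8 and 44.3 and 38.8, 49.1 and 33.1 in fibroblasts, a tissue difference of 5.07 ± 1.3 (SE, adjusted p = 0.0168). Adamts6 was at 18.2, 19.6 and 19.4 and 1.13, 0.288 and 1.32 CPM in heart and 5.05, 5.34 and 3.73 and 5.999, 4.43 and 8.04 in fibroblasts, a tissue difference of 4.77 ± 1.32 (SE, adjusted p = 0.0287). The call was lost for Adamts6 without F_4W replicate 3, F_Neo replicate 3, H_4W replicate 2, H_Neo replicate 2 or H_Neo replicate 3 (adjusted p = 0.0511 to 0.0819). Nox4, an NADPH oxidase that yields hydrogen peroxide, was at 1.902, 1.44 and 1.25 CPM in H_Neo and 0.0349, 0.01601 and 0.156 in H_4W, and at 3.09, 5.53 and 2.46 in F_Neo and 4.74, 12.6 and 13.3 in F_4W. The tissue difference was 5.89 ± 1.11 (SE, adjusted p = 0.00143). Nox4 was the only gene called of the 10 DUOX and NOX genes tested, where 7.14% of all genes were called, and DESeq2 called 2 of the list. The list median was 2.16 (3.24 with genes lacking any count in a group set to a floor of 3 counts). Id4, an inhibitor of basic helix-loop-helix factors, fell in heart from 3.94, 2.33 and 1.76 CPM to 1 count in all over H_4W, which is 489-fold (95% counting interval 87.8 to 19329.8), and was at 6.67, 19.9 and 10.3 and 14.9, 3.33 and 14.4 in fibroblasts.

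Some genes moved in the same direction in both tissues but to a different extent. Magel2, an imprinted gene, was at 22.2, 30.6 and 19.2 CPM in F_Neo and had no count in F_4W, a fall of at least 2059-fold. In heart it fell from 0.883, 2.996 and 1.66 CPM to 3 counts in all, which is 115-fold (95% counting interval 39.3 to 557), so that the fitted tissue difference rests on groups with almost no counts. Igf2bp1, an RNA-binding protein of fetal tissues that binds Igf2 mRNA, fell from 18.95, 40.4 and 23.2 CPM to 1 count in all in fibroblasts and from 12.2, 13.8 and 11.9 to 0, 0 and 0.716 in heart. Nearly all of the heart level at 4 weeks came from replicate 3, and without it the tissue difference of Igf2bp1 was 0.37 in place of -6.52. The calls were lost for Igf2bp1 without any of 10 samples (adjusted p = 0.0563 to 0.883) and Magel2 without F_Neo replicate 2 (adjusted p = 0.0526). Bcl11a, a zinc-finger repressor, fell from 1.72, 2.89 and 1.06 CPM to no count in F_4W, at least 162-fold, and from 20.3, 24.5 and 17.02 to 4.12, 4.82 and 2.63 in heart. Tmem255b rose from 2 counts in all to 2.36, 4.801 and 9.7 CPM in fibroblasts, which is 704-fold (95% counting interval 195 to 5809.8), and from 1.31, 2.31 and 1.403 to 8.69, 14.9 and 11.2 in heart.

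The gene programmes of the maturing myocyte lay at the lower end of the tissue difference. Of 22 sarcomere genes, 15 had a lower and 1 a higher tissue difference, where 3.96% of all genes were lower, and the median was -2.68 against 0.17 over all genes. In fibroblasts 19 of them fell and none rose, and in heart 3 rose and 2 fell. Over all genes 5.91% fell in fibroblasts, and in heart 7.75% rose and 5.33% fell. Ttn, the giant spring of the sarcomere, was at 33.9, 15.1 and 21.3 CPM in F_Neo and 0.872, 0.711 and 2.22 in F_4W, and at 1219.6, 1738 and 1144 in H_Neo and 5179, 1747 and 3311 in H_4W. Myh6, the adult myosin heavy chain, had means of 228 ± 47.2 and 22.8 ± 13.5 CPM in fibroblasts, against 12454 ± 2037 and 32996 ± 4037 in heart (SD, n = 3). The heart changes of Ttn (1.32, adjusted p = 0.195) and Myh6 (1.41, adjusted p = 0.0709) did not pass the test. Mybpc3, a thick-filament protein, had a tissue difference of -4.29 ± 0.29 (SE, adjusted p = 3.97e-09). The exception was Tnni1, the fetal troponin I, which fell in heart from 1753, 1698 and 1617 CPM to 1.27, 3.28 and 0.498 and in fibroblasts from 16.3, 17.1 and 16.9 to 0.165, 0.862 and 1.14, a tissue difference of 5.44 ± 1.22 (SE, adjusted p = 0.00656). These genes include 7 of the 8 cardiomyocyte markers, which in fibroblasts had a summed 685 to 759.6 CPM at day 1 and 54.1 to 152 at 4 weeks, and the part of cardiomyocyte RNA in the fibroblast values was not tested.

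Of 15 calcium handling genes, 7 were lower and 1 higher, where 3.96% and 3.18% of all genes were, with a median of -1.97. Ryr2, the release channel of the sarcoplasmic reticulum, had a tissue difference of -3.95 ± 1.09 (SE, adjusted p = 0.0277), and Casq2, a calcium-storing protein, -2.54 ± 0.65 (SE, adjusted p = 0.0158). Hrc, a histidine-rich calcium-binding protein, rose in heart from 117 ± 20.98 to 1006 ± 110.5 CPM with a tissue difference of -3.43 ± 0.50 (SE, adjusted p = 9.00e-05). The call was lost for Ryr2 without F_4W replicate 1, H_Neo replicate 1, H_Neo replicate 2 or H_Neo replicate 3 (adjusted p = 0.0593 to 0.0667). The gene that was higher was Cacna1c, the pore of the L-type calcium channel, which rose in fibroblasts from 4.46, 10.1 and 8.74 to 27.99, 18.1 and 51.6 CPM while heart stood at 238, 333 and 263 and 304, 183 and 214. Of 23 membrane channel genes, 10 were lower and none higher, with a median of -2.54 (-2.75 with genes lacking any count in a group set to a floor of 3 counts). Hcn4, the pacemaker channel, was at 14.5, 3.39 and 10.4 CPM in F_Neo and 0.0118, 0.886 and 0.0227 in F_4W, and at 2.53, 5.18 and 7.35 in H_Neo and 32.7, 20.2 and 16.3 in H_4W. Its day 1 mean in fibroblasts was 188% of the heart mean, and the part of cardiomyocyte RNA in the fibroblast values here was not tested. Besides Kcnd3, the others of this list named are Kcnv2, with 1 count in all in H_Neo and 4.36 CPM on average in H_4W, and Kcnj12, with 0.248 CPM on average in F_Neo and 2 counts in all in F_4W. These 2 calls were lost for Kcnv2 without F_Neo replicate 1 (adjusted p = 0.941) and Kcnj12 without F_Neo replicate 3 (adjusted p = 0.174).

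Of 15 natriuretic and adrenergic genes, 5 were lower and none higher, with a median of -1.79. Besides Adrb1 they included Adra1a, an α1-adrenergic receptor, which rose in heart from 0.186 ± 0.178 to 7.51 ± 3.902 CPM, and Corin, the protease that activates the natriuretic peptide precursors, which fell in fibroblasts from 7.01, 4.53 and 3.897 to 0.33, 0.455 and 0.512. Nppa, the atrial natriuretic peptide gene, fell in both tissues, from 9.297 ± 3.42 to 0.186 ± 0.0398 CPM in fibroblasts and from 868 ± 515 to 201 ± 142 in heart, with a tissue difference of -3.52 ± 1.02 (SE, adjusted p = 0.0387). The part of cardiomyocyte RNA in the fibroblast values of Nppa and the other genes of this list was not tested. Of 18 cardiac transcription factors, 2 were lower, with a median of -0.45, namely Nkx2-5 with -2.73 ± 0.65 (SE, adjusted p = 0.0108) and Tead1 with -1.14 ± 0.31 (SE, adjusted p = 0.0272). Over all genes 3.96% were lower. In these 2 lists calls were lost for Nppa without any of 8 samples (adjusted p = 0.0654 to 0.114) and Tead1 without F_4W replicate 3, F_Neo replicate 2, F_Neo replicate 3 or H_Neo replicate 1 (adjusted p = 0.05798 to 0.0803). In a fit of only the 12 samples they were lost for Adra1a (adjusted p = 0.12), Nkx2-5 (0.0642) and Tead1 (0.0753), and with library size only for Nppa and Tead1. The cardiac transcription factors then had 2 genes higher and 1 lower.

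Energy metabolism moved apart in the same sense. Of 77 nuclear-encoded respiratory chain genes, 52 had a lower tissue difference and 2 a higher one, where 3.96% and 3.18% of all genes did. The median was -1.12. Within heart 52 rose and 2 fell, and within fibroblasts none rose and 18 fell. Over all genes 7.75% rose in heart and 5.91% fell in fibroblasts. With library size only, 23 had a lower tissue difference and 2 a higher one, and within heart 12 rose and 3 fell. Uqcrc1, a core subunit of complex III, was at 84.3, 87.7 and 90.2 CPM in F_Neo and 57.8, 53.4 and 60.1 in F_4W, and at 857, 692 and 769.9 in H_Neo and 1579, 2312 and 1568 in H_4W, with no overlap of ages in either tissue. Its tissue difference was -1.85 ± 0.24 (SE, adjusted p = 2.24e-05), and that of Ndufs5 of complex I was -2.05 ± 0.42 (SE, adjusted p = 0.00274). The largest differences belonged to the muscle isoforms of cytochrome oxidase, with -3.32 ± 0.84 (SE, adjusted p = 0.0158) for Cox6a2 and -2.88 ± 0.55 (SE, adjusted p = 0.00162) for Cox8b. The only genes that were higher were their counterparts in other tissues, Cox6a1 (1.07 ± 0.24 SE, adjusted p = 0.00611) and Cox8a (1.14 ± 0.27 SE, adjusted p = 0.01002). Cox6a1 had means of 300.0 and 133 CPM in heart and 62.2 and 58.1 in fibroblasts, and Cox8a 294 and 151 in heart and 41.1 and 46.5 in fibroblasts. Of 26 genes of the mitochondrial genome tested, 10 had a lower tissue difference and none a higher one, and 6 of these fell in fibroblasts and rose in heart.

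Fatty acid oxidation followed, with 11 of 28 genes lower, 1 higher and a median of -0.96 (6 lower and 2 higher with library size only). Over all genes 3.96% were lower and 3.18% higher. Hadhb, a subunit of the mitochondrial trifunctional protein, fell in fibroblasts from 17.6, 26.1 and 19.8 to 10.2, 14.4 and 16.8 CPM and rose in heart from 158, 166 and 222 to 418, 509 and 394. Echs1, which acts in the same pathway, had a tissue difference of -1.68 ± 0.27 (SE, adjusted p = 2.66e-04), Cpt2, which takes acyl groups over the inner membrane, -1.5 ± 0.26 (SE, adjusted p = 6.61e-04), and Lpl, the lipase that frees fatty acids from lipoproteins, -1.7 ± 0.31 (SE, adjusted p = 0.00112). Lpl was abundant in both tissues, at 785, 566 and 769 and 872, 958 and 732 CPM in fibroblasts and 1365, 728 and 944 and 4885, 3081 and 3935 in heart, and rose in heart only by this test. The gene that was higher was Cpt1a, the non-muscle form of the rate-limiting transferase (1.08 ± 0.26 SE, adjusted p = 0.0118). Of 22 genes of glucose uptake and glycolysis, 5 were lower and 1 higher, and the median was -0.31. Those that were lower included the muscle forms Slc2a4 (the insulin-responsive transporter, -4.57 ± 0.67 SE, adjusted p = 1.04e-04), Pgam2 (-4.23 ± 0.77 SE, adjusted p = 0.00103), Pfkm (-1.96 ± 0.25 SE, adjusted p = 2.30e-05) and Eno3 (-1.78 ± 0.39 SE, adjusted p = 0.00478), and Pfkp, a form found in other tissues, was higher (1.58 ± 0.29 SE, adjusted p = 0.00117). The fibroblast samples of the ages overlapped for Slc2a4, with 1.17, 8.02 and 15.4 CPM in F_Neo and 1.14, 1.26 and 2.51 in F_4W.

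Complement genes are part of innate immunity and are made by many stromal cells. Of 19 complement genes, 5 were higher and 1 lower, where 3.18% of all genes were higher, and the median was 0.65 (0.53 with genes lacking any count in a group at the floor). C3, the central component of the cascade, was at 14.8, 5.77 and 5.38 CPM in F_Neo and 894, 913 and 901 in F_4W, while heart samples overlapped at 62.8, 84.4 and 43.5 and 49.2, 53.01 and 71.4. The tissue difference of 6.84 ± 0.47 (SE, adjusted p = 4.03e-09) was the largest of the list. C7, of the membrane attack complex, had a tissue difference of 4.06 ± 0.96 (SE, adjusted p = 0.009503). Clu, a chaperone that also inhibits the attack complex, was lower (-2.55 ± 0.49 SE, adjusted p = 0.00178), with a rise in heart from 149, 88.9 and 104 to 354, 449 and 284 CPM. Macrophage markers, summed over 6 genes, were at 98.9 to 200.1 CPM in F_Neo, 265 to 438 in F_4W, 68.8 to 94.7 in H_Neo and 415 to 532 in H_4W, and their part in the immune genes was not tested.

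Of 27 chemokine and interleukin genes, 3 were higher and 1 lower, where 3.18% and 3.96% of all genes were, with a median of 0.38. Cxcl14 was at 0.172, 0.219 and 0.206 CPM in F_Neo and 57.99, 55.2 and 62.9 in F_4W, and at 0.478, 0.253 and 0.309 in H_Neo and 6.28, 5.97 and 7.31 in H_4W. It rose in both tissues and more in fibroblasts, with a tissue difference of 3.97 ± 0.33 (SE, adjusted p = 5.56e-08). Cxcl12, a homing signal for blood progenitors, had 2.19 ± 0.30 (SE, adjusted p = 5.03e-05) and the membrane-bound chemokine Cx3cl1 1.54 ± 0.38 (SE, adjusted p = 0.0134). Csf1, the growth factor of macrophages, rose in both and more in heart (-1.49 ± 0.39 SE, adjusted p = 0.0179). Antigen presentation genes rose in both tissues (17 of 21 in fibroblasts and 15 in heart), where 7.65% and 7.75% of all genes rose. In this list 3 had a higher tissue difference, with a median of 0.54, namely H2-Q7 (4.47 ± 0.92 SE, adjusted p = 0.00294), Psmb10 (1.12 ± 0.32 SE, adjusted p = 0.0329) and Tapbp (0.96 ± 0.22 SE, adjusted p = 0.00851). H2-Q7 has close copies among which reads may be split, and its values are uncertain. Of 25 interferon-stimulated genes 16 rose in fibroblasts and 12 in heart, and the sole gene called for the tissue difference was Ifitm3 (-0.70 ± 0.21 SE, adjusted p = 0.0471), with a median of 0.27 over the list. Calls among the chemokine, antigen and interferon genes were lost for Cx3cl1 without H_4W replicate 1, H_4W replicate 3 or H_Neo replicate 2 (adjusted p = 0.0505 to 0.0544), Csf1 without H_Neo replicate 1 (adjusted p = 0.0537), Psmb10 without any of 6 samples (adjusted p = 0.0555 to 0.128), Tapbp without H_4W replicate 3 (adjusted p = 0.0517) and Ifitm3 without any of 8 samples (adjusted p = 0.0607 to 0.118).

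Growth factor genes moved apart within the IGF axis, in which secreted IGF1 and IGF2 act through a shared receptor and are held by binding proteins. Of 13 genes 4 were higher and 1 lower, where 3.18% and 3.96% of all genes were, with a median of 0.71 (0.42 with genes lacking any count in a group at the floor). Igf1 was at 99.8, 84.2 and 111 CPM in F_Neo and 349, 374 and 241 in F_4W, while heart samples overlapped at 28.2, 49.8 and 51.2 and 28.5, 12.4 and 35.5, a tissue difference of 2.46 ± 0.43 (SE, adjusted p = 6.71e-04). Igf2 fell in both and more in fibroblasts, from 4999, 5513 and 4725 to 67.6, 74.03 and 107 CPM against 1951, 2489 and 1832 to 142, 161 and 177 in heart. Its tissue difference was -2.23 ± 0.32 (SE, adjusted p = 7.13e-05). Among the binding proteins, Igfbp6 (2.01 ± 0.45 SE, adjusted p = 0.006501) rose in both tissues, while Igfbp5 (1.59 ± 0.34 SE, adjusted p = 0.00459) fell in heart and Igfbp4 (1.35 ± 0.30 SE, adjusted p = 0.00644) was also higher. Of 23 imprinted growth genes, 15 fell in fibroblasts and 13 in heart, where 5.91% and 5.33% of all genes did. In this list 4 had a lower tissue difference and none a higher one, with a median of -0.26. They were Magel2, Igf2, H19 and Gnas. H19, a noncoding RNA expressed from the locus of Igf2, fell from 5059, 5242 and 4406 CPM to 29.02, 28.6 and 23.4 in fibroblasts and from 3285, 3716 and 2516 to 68.7, 84.8 and 99.7 in heart, a tissue difference of -2.27 ± 0.39 (SE, adjusted p = 5.19e-04). Gnas, which encodes a G protein subunit at a locus of overlapping transcripts, had -0.84 ± 0.18 (SE, adjusted p = 0.00442).

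Matrix genes other than collagens changed in parts. Of 18 elastic fibre genes, 4 were higher and none lower, where 3.18% of all genes were higher, with a median of 0.49. Eln, elastin itself, was at 2430.4, 1869 and 2167 CPM in F_Neo and 3996, 3735 and 3480.4 in F_4W, and at 530.3, 589 and 469 in H_Neo and 232, 189 and 194 in H_4W, so that it rose in fibroblasts and fell in heart. Efemp1, a fibulin, rose in fibroblasts from 0.827, 3.68 and 1.897 to 42.4, 36.4 and 44.7 CPM, while heart samples overlapped at 6.86, 6.61 and 3.401 and 4.47, 3.81 and 4.31. Emilin2 had a tissue difference of 2.5 ± 0.32 (SE, adjusted p = 2.24e-05) and Fbln5, needed for fibre assembly, 1.0 ± 0.30 (SE, adjusted p = 0.0409). The call was lost for Fbln5 without any of 11 samples (adjusted p = 0.0524 to 0.136). Of 21 matricellular genes 4 were higher and 1 lower, with a median of 0.02. Besides Thbs4 they were Ctgf, a growth factor-binding protein of scar formation that rose in fibroblasts from 72.4, 92.9 and 60.2 to 485, 422 and 222 CPM, Ltbp2 (2.84 ± 0.55 SE, adjusted p = 0.00198), the proteoglycan Vcan, which fell in heart (2.14 ± 0.41 SE, adjusted p = 0.00184), and Sparcl1, which was lower (-1.07 ± 0.20 SE, adjusted p = 0.00149).

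Of 24 genes of collagen folding and processing, 3 were lower and none higher, where 3.96% of all genes were lower, with a median of -0.15. P4ha1, a catalytic subunit of prolyl 4-hydroxylase, rose in both tissues and more in heart, from 14.6, 13.5 and 18.1 to 74.7, 55.8 and 89.2 CPM against 102, 100.4 and 102 to 147, 200.5 and 141 in fibroblasts. Plod1, a lysyl hydroxylase, was level in fibroblasts at 181, 165 and 219 and 202, 191 and 194 CPM and rose in heart from 61.3, 69.4 and 64.2 to 181, 180.2 and 188. P4hb, the partner subunit, had -0.71 ± 0.19 (SE, adjusted p = 0.0263), and the call was lost for P4hb without F_4W replicate 1, F_Neo replicate 2, F_Neo replicate 3, H_Neo replicate 1 or H_Neo replicate 2 (adjusted p = 0.0504 to 0.0667). Of 27 matrix proteases 2 were higher, Adamts19 and Adamts6, and 2 lower, Adamts7 (-2.41 ± 0.44 SE, adjusted p = 9.09e-04) and Adamts9 (-1.47 ± 0.38 SE, adjusted p = 0.0189), with a median of 0.45. Over all genes 3.18% were higher and 3.96% lower. The call was lost for Adamts9 without F_4W replicate 1, F_4W replicate 2, F_Neo replicate 2 or H_Neo replicate 1 (adjusted p = 0.0531 to 0.0547). The median over 16 basement membrane genes was 0.11, with 1 gene higher and none lower. Of 15 small leucine-rich proteoglycans 0 were called by edgeR, 2 had an unadjusted p under 0.05, 1 was called by DESeq2, and the median was 0.30. Within fibroblasts and within heart 6 of them rose, where 7.65% and 7.75% of all genes did.

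Of 20 fibroblast identity genes, 4 were higher and none lower, where 3.18% of all genes were higher, with a median of 0.48. All of these 4 rose in both tissues and more in fibroblasts. Pi16, a marker of adventitial fibroblasts, was at 25.8, 26.2 and 26.6 CPM in F_Neo and 2089.7, 1882 and 1866 in F_4W, and at 9.53, 6.96 and 11.5 in H_Neo and 106, 161 and 186 in H_4W, a tissue difference of 2.2 ± 0.30 (SE, adjusted p = 4.15e-05). Ly6a, the surface antigen Sca-1, was at 0.859, 1.31 and 0.0387 CPM in F_Neo and 132, 97.8 and 178 in F_4W, with 7.35, 4.56 and 12.4 and 73.2, 56.6 and 47.7 in heart, a tissue difference of 4.65 ± 0.69 (SE, adjusted p = 1.22e-04). Gsn had 1.07 ± 0.28 (SE, adjusted p = 0.0186) and Cd34 0.93 ± 0.23 (SE, adjusted p = 0.0122), and the calls were lost for Gsn without F_Neo replicate 2, H_4W replicate 1, H_4W replicate 3 or H_Neo replicate 1 (adjusted p = 0.0504 to 0.09796) and Cd34 without H_4W replicate 1 (adjusted p = 0.0665).

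Signalling genes were called in small numbers, and are set beside the 3.18% of all genes that were higher. Of 38 TGF-β and BMP genes 4 were higher and none lower, with a median of 0.65. They were Inhba, a subunit of activin (2.97 ± 0.76 SE, adjusted p = 0.0167), the helix-loop-helix inhibitor Id2 (1.56 ± 0.35 SE, adjusted p = 0.00611), the activin-binding protein gene Fstl1 (1.15 ± 0.26 SE, adjusted p = 0.00708) and the receptor gene Tgfbr2 (1.04 ± 0.26 SE, adjusted p = 0.0132). The first 3 of these fell in heart, and Tgfbr2 rose in fibroblasts. Of 23 Wnt genes 2 were higher, Wnt11 (2.15 ± 0.59 SE, adjusted p = 0.0278) and the secreted inhibitor gene Sfrp1, which fell in heart (1.87 ± 0.28 SE, adjusted p = 1.23e-04). The median of the Wnt list was 0.16, and -0.23 with genes lacking any count in a group at the floor. Of 28 immediate early genes 3 were higher and none lower, with a median of 0.43, and 1 was higher without F_4W replicate 3. Myc, the growth-promoting transcription factor, was at 129, 154 and 152 and 206, 150.2 and 231 CPM in fibroblasts, and fell in heart from 32.1, 20.8 and 15.4 to 2.23, 5.14 and 5.93. Klf4 had 1.44 ± 0.40 (SE, adjusted p = 0.0265) and Jund 0.88 ± 0.26 (SE, adjusted p = 0.03897). Calls of these lists were lost for Inhba without F_4W replicate 1, H_4W replicate 2 or H_Neo replicate 2 (adjusted p = 0.0531 to 0.0643), Tgfbr2 without H_4W replicate 2 (adjusted p = 0.0583), Wnt11 without F_4W replicate 3, F_Neo replicate 2, F_Neo replicate 3, H_4W replicate 3 or H_Neo replicate 2 (adjusted p = 0.0505 to 0.106), Klf4 without any of 6 samples (adjusted p = 0.0543 to 0.0856) and Jund without any of 8 samples (adjusted p = 0.0562 to 0.179). With library size only, 10 TGF-β and BMP genes and 9 immediate early genes were higher.

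Mural cell genes moved the other way, with 7 of 15 smooth muscle and pericyte genes lower and 1 higher, where 3.96% and 3.18% of all genes were, and a median of -1.58. Notch3, a receptor that maintains mural cells, fell in fibroblasts from 263, 443 and 402 CPM to 52.7, 39.8 and 28.8 while heart samples overlapped at 40.4, 62.9 and 43.6 and 61.8, 66.8 and 84.7, a tissue difference of -3.73 ± 0.43 (SE, adjusted p = 5.10e-06). Every F_Neo sample was above every H_Neo sample for Notch3, whereas the summed mural markers given below were lower in F_Neo than in H_Neo. Kcnj8, a potassium channel of pericytes, fell in fibroblasts from 5.53, 8.16 and 8.59 to 2.76, 2.04 and 0.728 CPM and rose in heart from 24.98, 27.1 and 22.1 to 50.8, 70.6 and 65.3. Vtn, vitronectin, rose in heart (-4.0 ± 1.17 SE, adjusted p = 0.0395). The gene that was higher, Cnn1, had 1 count in all in F_Neo and a mean of 0.354 CPM in F_4W, and was at 7.89, 22.3 and 15.4 and 0.89, 0.881 and 1.51 in heart. The calls were lost for Vtn without any of 7 samples (adjusted p = 0.0518 to 0.0918) and Cnn1 without F_4W replicate 2 (adjusted p = 0.3098). The 6 mural markers summed to 176 to 198 CPM in F_Neo, 54.2 to 121 in F_4W, 371 to 428 in H_Neo and 617 to 1177 in H_4W, and a change in the number of mural cells in the sorted samples was not tested.

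Proliferation genes fell in both tissues. Of 42 cell cycle genes, 17 fell in fibroblasts and 22 in heart and none rose in either, with median changes of -1.72 and -2.0. The tissue difference passed for 1 of them, Ccnd1, the cyclin that responds to growth factors, which fell in fibroblasts from 339, 407 and 345 to 121, 160.1 and 151 CPM while heart samples overlapped at 52.1, 97.7 and 102 and 87.6, 131 and 132. Of 61 cytosolic ribosomal protein genes, 52 fell in fibroblasts and 16 in heart, where 5.91% and 5.33% of all genes did. These counts depended on the scaling, being 56 and 56 with library size only and 55 and 6 with median-of-ratios size factors. In all, 4 had a lower tissue difference, where 3.96% of all genes did, namely Rps2 (-1.08 ± 0.30 SE, adjusted p = 0.0261), Rpl27 (-1.06 ± 0.32 SE, adjusted p = 0.0457), Rpl28 (-0.94 ± 0.25 SE, adjusted p = 0.0208) and Rpl29 (-0.81 ± 0.25 SE, adjusted p = 0.0485), with a median of -0.46. Ribosomal protein genes have many processed copies among which reads may be split. Calls were lost for Rps2 without any of 6 samples (adjusted p = 0.0562 to 0.06799), Rpl27 without any of 9 samples (adjusted p = 0.0548 to 0.125), Rpl28 without F_4W replicate 3, H_Neo replicate 2 or H_Neo replicate 3 (adjusted p = 0.0514 to 0.0616) and Rpl29 without any of 9 samples (adjusted p = 0.0532 to 0.128). With library size only, 2 ribosomal genes were higher and none lower. Among 16 macrophage genes, 9 rose in fibroblasts and 11 in heart, where 7.65% and 7.75% of all genes did. The tissue difference passed for 1 macrophage gene, Cd68 (-1.86 ± 0.47 SE, adjusted p = 0.0151), and this call was lost for Cd68 without H_Neo replicate 2 (adjusted p = 0.0512). The median of the list was -1.06.

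Lists of other cell types were short, and 0 calls in them is near the share of all genes called (7.14%). Of 16 endothelial genes 0 were called for the tissue difference by edgeR, 1 had an unadjusted p under 0.05 and 0 were called by DESeq2, and the median was 0.22. Of 10 lymphocyte genes 0 were called by edgeR, 2 had an unadjusted p under 0.05 and 1 was called by DESeq2, and the median was 2.36. Of 7 red cell genes 0 were called by edgeR, 1 had an unadjusted p under 0.05 and 0 were called by DESeq2, and the median was -1.92. Of 11 epicardial genes 0 were called by edgeR, 2 had an unadjusted p under 0.05 and 1 was called by DESeq2, and the median was -0.62. Of 6 fat cell genes 0 were called by edgeR, 3 had an unadjusted p under 0.05 and 2 were called by DESeq2, and the median was 0.74. Without F_4W replicate 3, 1 red cell gene was lower and the other 4 of these lists again had 0 calls.

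The scaling moved the calls of several lists. With library size only, genes were higher in 10 of the cholesterol synthesis list, 8 of fibroblast identity, 7 of elastic fibres, 6 of antigen presentation and 2 of the small leucine-rich proteoglycans, and none of these lists had a lower gene. The balance turned for collagen processing (3 higher and 2 lower) and interferon-stimulated genes (2 higher and 0 lower), and was even for imprinted growth genes (3 and 3). With median-of-ratios size factors the ribosomal list had 8 genes lower, and each of the small leucine-rich proteoglycan, elastic fibre and antigen presentation lists had 1. The sarcomere list had 15 lower and 1 higher under all 3 scalings. Among the genes named, the call for the tissue difference was lost with library size only for 12, namely Adamts9, Csf1, Gnas, Ifitm3, Nppa, P4hb, Rpl27, Rpl28, Rpl29, Rps2, Tead1 and Vtn. With median-of-ratios size factors it was lost for Fbln5, Gsn, Jund and Psmb10. A fit of only the 12 samples, in place of all 27, lost it for 22 (adjusted p = 0.0506 to 0.211), namely Adamts9, Adra1a, Cd34, Cx3cl1, Gsn, Id2, Ifitm3, Igf2bp1, Insig1, Jund, Kcnv2, Ldhd, Lrg1, Nkx2-5, P4hb, Psmb10, Rhbdl3, Rpl27, Rpl29, Tead1, Vtn and Wnt11.

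**Figure D4:**
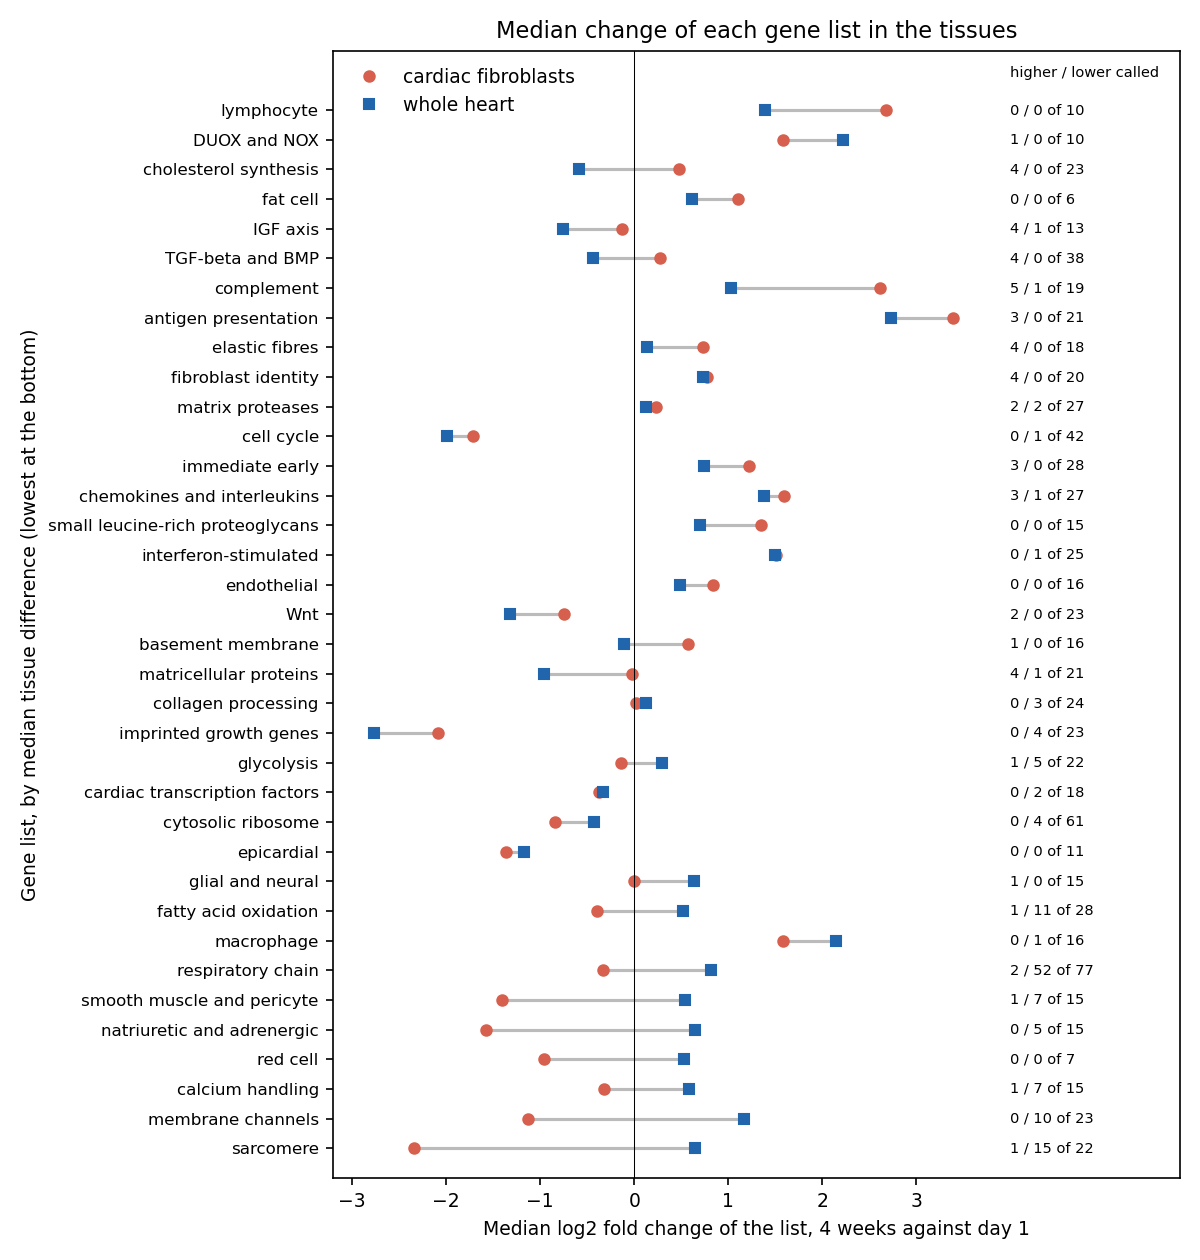
Median log2 fold change of 4 weeks over postnatal day 1 of each of the 36 gene lists in cardiac fibroblasts (circles) and whole heart (squares), ordered by the median tissue difference, with the number of genes called higher and lower for the tissue difference at the right. Sarcomere genes, at the bottom, had medians of -2.35 in fibroblasts and 0.65 in heart, and cell cycle genes fell in both tissues.

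The samples of later ages, which were outside the contrast but in the fit that gave the calls, show where the opposed genes went after 4 weeks. These were 2 fibroblast samples and 3 hearts at each of 3 later ages, 14 weeks (F_14W, H_14W), 1 year (F_1Y, H_1Y) and 1.5 years (F_18M, H_18M). The log2 ratio of the mean fibroblast level to the mean heart level, each plus 0.5 CPM, had a median over the 33 genes that rose in fibroblasts and fell in heart of -0.84 at day 1 and 1.47 at 4 weeks. The medians of the 3 later ages, in order, were 1.11, 1.5 and 1.01. The ratio exceeded that of day 1 in 33, 33 and 32 of the 33 genes at the later ages, where it did so in 55.7%, 54.4% and 55.8% of all genes. For the 96 genes of the reverse pattern the median was -1.65 at day 1 and -3.87 at 4 weeks, and -3.96, -3.72 and -3.97 at the later ages. The ratio was below that of day 1 in 96, 95 and 96 of them, against 43.2%, 44.8% and 42.8% of all genes. These counts share the day 1 samples with the comparison that chose the genes, and the later samples were in its fit, so the counts are a description.

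Single genes differed in how they held their level. Means are given in the order of age. Ntn4 was at a mean of 140.0, 184 and 156 CPM in F_14W, F_1Y and F_18M, and at 20.8, 19.98 and 17.1 in heart, so the split of 4 weeks remained. Thbs4 reached 62.4 and 152 CPM in fibroblasts at 14 weeks and 1 year and was at 22.7 at 1.5 years, and in heart it was at 4.53, 9.14 and 13.3. At 1.5 years the 2 fibroblast samples, at 9.93 and 35.5 CPM, lay on either side of the heart samples (11.8 to 14.7). Fndc5 and Ank1 were at 6.02 and 4.4 CPM in fibroblasts at 1.5 years, against 835 and 706 in heart. Prlr, nearly absent from fibroblasts after day 1 with means of 0, 0 and 0.188 CPM at the later ages, was at 10.1, 13.3 and 4.81 in heart. Nox4 was at 30.3, 39.2 and 26.9 CPM in fibroblasts, above its 4-week mean of 10.2, and at 0.689, 1.06 and 1.07 in heart.

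**Figure D5:**
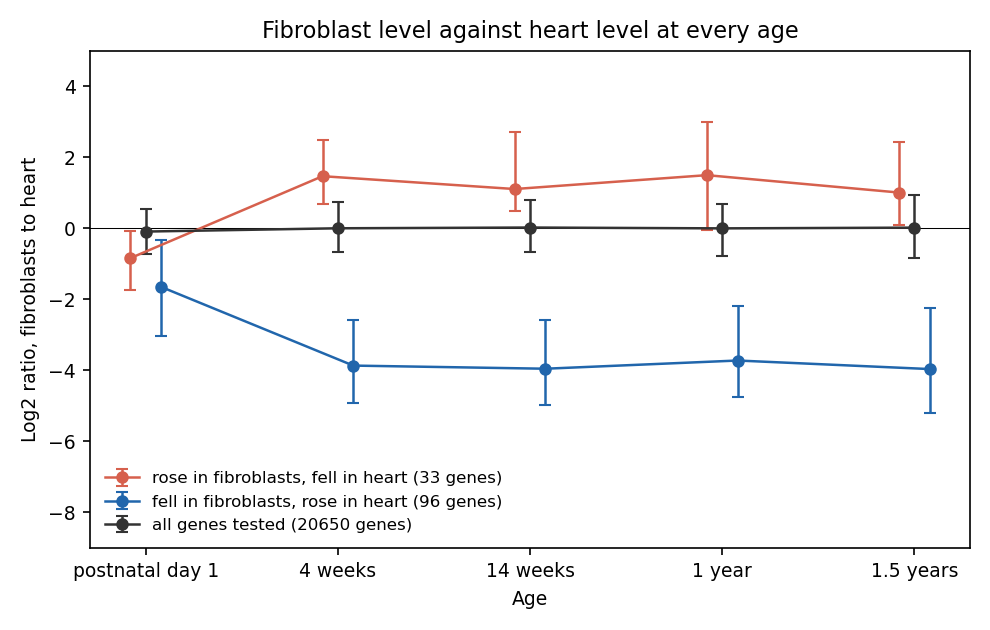
Log2 ratio of the mean fibroblast level to the mean heart level at each of the 5 ages, with points at the median over genes and bars over the quartiles. Genes that rose in fibroblasts and fell in heart went from -0.84 at day 1 to 1.47 at 4 weeks, the reverse set from -1.65 to -3.87, and all genes tested stayed near 0.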

How the data were processed

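RNA-Seq had been done on 12 samples of PDGFRα-sorted cardiac fibroblasts and 15 of whole heart, and the 12 samples of postnatal day 1 and 4 weeks were compared here. The authors mapped single-end reads of 65 bases to the mouse genome (mm10) with STAR 2.5.3a, and deposited raw counts per gene without normalization. Both tables hold 22855 genes and were joined by symbol, of which 95.4% are in GENCODE M21. The tissue and age of each label set its group. Fibroblasts and hearts came from the same animals in the study, but the labels do not say whether samples of the same number did, nor the sex of the animals, and p-values measure the spread between these samples.

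All 27 samples were fitted with edgeR 4.0.16 in R 4.3.3, with the 10 groups of tissue and age, filterByExpr, TMM factors and the quasi-likelihood F test. The tissue difference and the change in each tissue came from this fit, with Benjamini-Hochberg adjustment over all genes tested and a threshold of 0.05. SEs were derived from the log2 change and its F statistic. The common biological coefficient of variation was 83.6%. A group with no count was set to 3 counts over its samples, and a group with 1 to 3 counts is given as a ratio with an exact Poisson interval of 95%. Both cover counting error only.

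Genes named one by one had to be protein-coding, pass for the tissue difference, reach a mean of 10 CPM in a group and 1 CPM in each tissue, and show no overlap between ages where the change passed. The 6 with the largest tissue difference were named for each opposed pattern, 4 for each other pattern, and up to 4 called members of each of the 36 gene lists, at any level. Genes that a count of at most 5 rests on were named besides, and a few genes that met these rules are not reported here. The members and lists were chosen with earlier results of these data known. The fits were also run on simulated counts with less spread between samples than these data have, which checks the code and not the error rate here. DESeq2 1.42.0, other scalings and filters, a block for replicate number, and leaving out single samples were tried as alternatives. Promoters came from RefSeq (GRCm38.p6). Plots used matplotlib 3.10.9 (python 3.11.15, numpy 2.4.6, pandas 2.3.3).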

Additional observations from a re-analysis of the deposited data

Results flagged for a closer look

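By the test of the difference itself, 1475 genes changed unequally in fibroblasts and whole heart over the first 4 weeks. Of the genes named by pattern, the log2 tissue difference was 5.73 for Tmem71, 4.64 for Ntn4, 3.77 for Thbs4, 3.66 for Hsd17b7 and 3.3 for Foxc1, which rose in fibroblasts and fell in heart. For the reverse pattern it was -9.81 for Lgr6, -7.17 for Ogdhl, -6.31 for Itgb1bp2, -3.9 for Fndc5, -3.82 for Egln3 and -3.82 for Ank1. Genes that rose in fibroblasts without a change past the test in heart had 9.3 for Stmn4, 8.65 for Sh2d4a, 8.11 for Cmah and 7.93 for Upp1, and those that fell had -10.27 for Prlr, -9.83 for Kcnd3, -9.49 for Adrb1 and -8.03 for Celsr1. Genes that rose in heart without a change past the test in fibroblasts had -5.21 for Csdc2, -5.1 for Lrg1, -3.96 for Ldhd and -3.93 for Rhbdl3, and those that fell had 8.35 for Id4, 5.89 for Nox4, 5.07 for Adamts19 and 4.77 for Adamts6. Genes that moved in the same direction in both tissues had -7.56 for Bcl11a, -6.98 for Magel2, -6.52 for Igf2bp1 and 6.39 for Tmem255b. The sizes for Lgr6, Stmn4, Sh2d4a, Prlr, Kcnd3, Adrb1, Celsr1, Id4, Bcl11a, Magel2, Igf2bp1 and Tmem255b rest on a group with at most 3 counts and depend on the prior count of the fit. Dixon's test for an outlying sample was not run, since no group had more than 3 samples.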

How the results depend on the processing

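Of the 113 genes named by rule, 61 stayed past the threshold with the same direction under every alternative run, and 52 lost the call in at least 1. Of these, 18 kept it with each sample left out but lost it with a replicate block, namely Adra1a, Clu, Cox8b, Eno3, Fstl1, Gnas, H2-Q7, Id2, Igfbp5, Igfbp6, Ly6a, Ndufs5, Nkx2-5, Rhbdl3, Slc2a4, Stmn4, Tmem255b and Tmem71. The sign changed for 1, Igf2bp1, at 0.37 without H_4W replicate 3, and its range over the samples left out was -8.12 to 0.37. DESeq2 called 2794 genes for the tissue difference, 1077 higher and 1717 lower, with 277 opposed genes (59 and 218). Library size only gave 1668 higher and 443 lower, 4322 changed in heart, and 120 and 34 opposed. The fit of only the 12 samples gave 947 genes, 373 higher, and 21 that rose in fibroblasts and fell in heart. A 2-fold minimum left 1650 genes in heart and 52 opposed (12 and 40). The cause of these shifts was not tested. Leaving out each of the 12 samples in turn gave 1051 to 1549 genes for the tissue difference, 387 to 667 higher and 608 to 970 lower, 2245 to 2949 changed in fibroblasts and 1885 to 2819 in heart, and 78 to 137 opposed (16 to 36 that rose in fibroblasts and 60 to 101 of the reverse). Depth limits the size of the difference for 205 of the 1475 genes, which had at most 3 counts over a group.

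The study isolated fibroblasts from hearts that it also sequenced, but the labels do not tie replicate numbers to animals. The correlations of the deviations of same-numbered samples from their group means lay between -0.07 and 0.05, so the data gave no sign that the numbers pair the samples, which does not show that no animals were shared. With the replicate number as a block over the 12 samples, 674 genes passed (246 higher and 428 lower), 1774 changed in fibroblasts, and 69 were opposed (15 and 54). With the block within each age, 520 passed (190 higher and 330 lower).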
